A study of Mus musculus with 6 samples.

Results

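The AP-1 transcription factor genes Jun, Junb, Jund, Fos, Fosb, Fosl1 and Fosl2 and the related stress gene Atf3 were followed in RNA from mouse basal cell carcinoma. These 8 genes were taken by symbol from a deposited table of 23337 genes. All 8 were in the table, and all 8 passed the filter on low values. RNA came from tumour cells of ear epidermis in mice given tamoxifen at 4 weeks of age, and the sample labels place collection 6 weeks later. The growth protocol also names a later collection time, so the 6 weeks rest on the stage label of each sample. Wild-type tumours were R26-SmoM2/+ K14CreER (3 libraries) and knockout tumours were R26-SmoM2/+ Yapfl/fl K14CreER (3 libraries). Both groups therefore carried SmoM2, an active form of the Hedgehog transducer Smoothened, and a tamoxifen-dependent Cre driven by the keratin 14 promoter of basal keratinocytes. Only the knockout carried floxed Yap alleles, so recombination could occur in K14-expressing cells and their progeny and not in other cell types of the ear. Libraries are called WT1 to WT3 and KO1 to KO3 by the replicate number in their labels. The labels do not state that each came from a separate animal, so p-values reflect only how these 6 libraries vary, which may be technical. The series title links YAP-TEAD signalling to c-JUN, and the comparison asks which AP-1 subunits differ between the genotypes.

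AP-1 is a dimer of basic leucine zipper proteins. JUN proteins can pair with each other or with FOS proteins, whereas FOS proteins need a JUN partner to bind DNA stably. Fos, Fosb, Jun, Junb and Atf3 are immediate early genes, transcribed within minutes of growth factor, wounding or stress signals, and their transcripts are short-lived. In epidermis, c-JUN supports keratinocyte proliferation and EGF receptor expression, and JUNB restrains inflammation. YAP-TEAD complexes are known to share many enhancers with AP-1.

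The sequences just upstream of Jun and Fos are shown because these were the most abundant transcripts of the 2 families and because both promoters are known to carry sites of the AP-1 and CREB/ATF type. Jun is a gene without introns on chromosome 4 (95049034 to 95052222, minus strand, GRCm38), and Fos has 4 exons on chromosome 12 (85473890 to 85477273, plus strand, GRCm38). The 250 bases before each RefSeq start site (GRCm38.p6) are printed 5′ to 3′ on the gene's strand, chr4:95052223-95052472 for Jun and chr12:85473640-85473889 for Fos. Capitals mark matches, on either strand, to 5 motifs: TGACTCA (AP-1), TGACNTCA (AP-1 or CRE-like), TGACGT (part of a CRE site, whose letters can also lie within TGACNTCA), GGAATG (TEAD) and TATAAA.
Jun: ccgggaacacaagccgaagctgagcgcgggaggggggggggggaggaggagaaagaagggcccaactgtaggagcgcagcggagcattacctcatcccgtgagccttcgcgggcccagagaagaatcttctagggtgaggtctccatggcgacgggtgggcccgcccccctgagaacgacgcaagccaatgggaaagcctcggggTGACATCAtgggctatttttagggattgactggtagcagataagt
Fos: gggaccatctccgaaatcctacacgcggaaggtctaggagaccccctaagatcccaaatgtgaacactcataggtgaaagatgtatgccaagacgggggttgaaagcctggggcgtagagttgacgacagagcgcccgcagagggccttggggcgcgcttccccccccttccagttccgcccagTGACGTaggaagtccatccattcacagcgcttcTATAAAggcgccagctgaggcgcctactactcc

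The Jun window held TGACATCA at 45 to 38 bases before the start, a match to TGACNTCA that 7.49% of all 32851 RefSeq promoter windows of this length contained. The Fos window held TGACGT at 66 to 61 bases before the start (6.47% of all windows) and TATAAA at 33 to 28 bases (12.37%). In the other windows given for the members, the single match was ACGTCA, which reads TGACGT on the other strand, at 8 to 3 bases before the Atf3 start. TGACTCA (4.46% of all windows) and GGAATG (12.64%) matched in none of the 7 members' windows. The Jund window ends at a RefSeq start site (70697739) upstream of the GENCODE gene start (70698949). The Fosb, Fosl2 and Atf3 windows overlap exons of their own gene. Other start sites of the members were not scanned. A match is a stretch of letters and not a measured binding site.

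The other members lie on chromosome 8 (Junb, 84974484 to 84978718, and Jund, 70698949 to 70700616), chromosome 7 (Fosb, 19302696 to 19310051), chromosome 19 (Fosl1, 5447547 to 5455946), chromosome 5 (Fosl2, 32135801 to 32157842) and chromosome 1 (Atf3, 191170296 to 191218039), all GRCm38. Junb and Jund each have a single exon in their longest transcript, and Fosb, Fosl1, Fosl2 and Atf3 have 4. The library kit does not mark strand, and exons of 4 members overlap a gene on the opposite strand. These are Jun with Junos, Jund with Gm11175, Junb with Prdx2 and Fosl1 with Ccdc85b. How reads in those overlaps were assigned is not given in the sources used here.

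Depth was 15405490 to 25260431 assigned reads per library, and the fewest reads behind any value of a member was 104. The label codes start with DM22 for WT1, WT2, KO1 and KO2 and with DM24 for WT3 and KO3, and these are called code series. The DM24 libraries had fewer reads (15405490 and 15572640) than the DM22 libraries (22836259 or more). They had 59594 and 58654 normalized counts of the X-inactivation transcript Xist against 8.62 to 15.1, so code series, sex and depth cannot be told apart. Yap1, the deleted gene, had 5765, 6004 and 5573 normalized counts in WT1 to WT3 against 591, 773 and 1764 in KO1 to KO3, with no overlap. Basal keratinocyte markers summed to 460278 to 671410 normalized counts in wild type and 499660 to 547033 in knockout. All 6 of those markers (Krt5, Krt14, Trp63, Itga6, Itgb4 and Col17a1) were detected.

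Transcripts of the 8 genes ranged from among the most abundant in these tumours (Jun and Fos) to modest (Fosl1). They made up 1.02%, 1.11% and 0.534% of assigned reads in WT1 to WT3 and 0.901%, 0.846% and 0.232% in KO1 to KO3. Levels between genes are compared as normalized counts per kilobase of exon. Fos, the classical partner of c-JUN, reached 23284 ± 6242 per kilobase with Yap intact and 17883 ± 10692 without it (SD, n = 3). Jun had 21073 ± 10965 and 12089 ± 6499 per kilobase (SD, n = 3). Of 20932 genes with a known exon length, Jun and Fos each reached rank 11 in their highest library. In KO3 they ranked 85 and 67.

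Junb followed with wild-type and knockout levels of 9671 ± 4127 and 7130 ± 4198 per kilobase (SD, n = 3), Atf3 with 8681 ± 3893 and 7436 ± 5063 and Jund with 4854 ± 1759 and 3122 ± 1497. Lower levels were those of Fosb at 1746 ± 724 and 1627 ± 1209, Fosl2 at 701 ± 61.9 and 722 ± 163, and Fosl1 at 154 ± 60.5 and 211 ± 133 per kilobase. Fosl1 encodes FRA-1, the FOS protein known for invasive squamous tumours, and its rank among all genes ran from 3434 to 8586. The libraries of one genotype overlapped between neighbours from Fos down to Jund, so the group ranges alone do not separate the order there. Below Jund the wild-type ranges did not overlap between neighbours. In the knockout only Fosl2 and Fosl1, the last 2 in the order, did not overlap. Within single libraries Fos exceeded Jun in all except WT1, and Fosl1 was last in each of the 6. Jun was 1.62 to 2.68 times Junb and 2.93 to 5.21 times Jund over the 6 libraries. The order Jun, Junb, Atf3, Jund held in all 3 wild-type libraries. In the knockout Atf3 was above Junb in 2 of 3 libraries, with Junb at 0.928 and 0.915 of Atf3 in KO1 and KO2. That order depends on the length used, 2301 bases of exon for Junb and 2154 for Atf3. Their longest transcripts, of 1809 and 1984 bases, would put Junb above Atf3 there too.

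**Figure D1:**
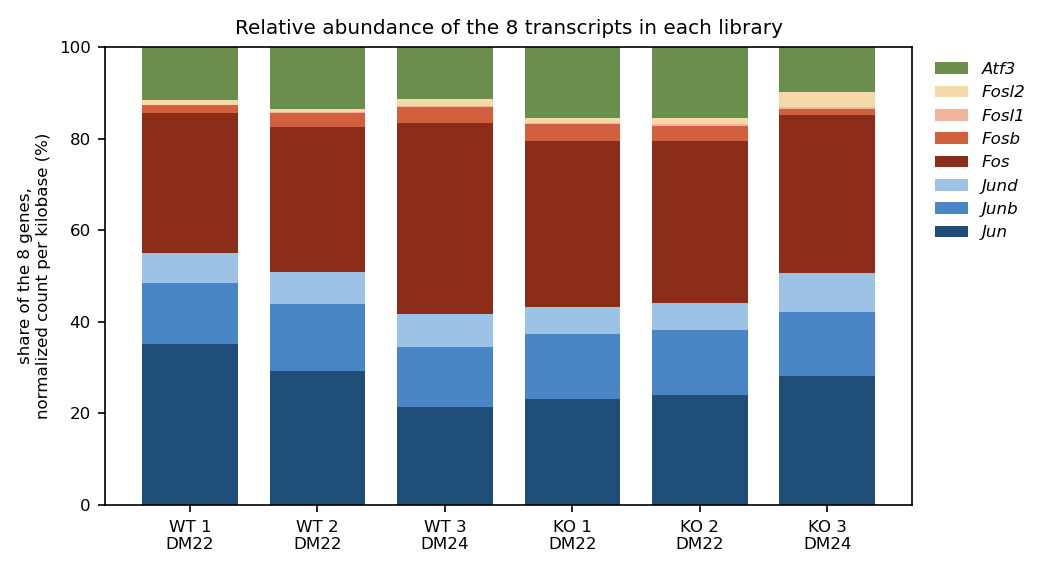
Share of each of the 8 transcripts, as normalized counts per kilobase of exon, in the sum of the 8 (vertical axis, percent), in wild-type (WT) and knockout (KO) libraries 1 to 3 with their code series. Jun and Fos together fill more than the other 6 in each bar, and Jun ranges from 21.3% in WT 3 to 35.2% in WT 1.

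The 3 JUN genes were lower in the knockout library of each same-numbered pair, and no FOS gene was. Being lower in all 3 pairs held for 17.3% of all 13671 genes tested. This contrast depends on the pairing within DM22, which rests on the replicate numbers alone. With WT1 set beside KO2 and WT2 beside KO1, the 3 JUN genes were still lower in each pair. Fos was then lower in each pair too, at 53945 against 57462 and 59063 against 67910 normalized counts within DM22. Jun, which encodes c-JUN, had 90055, 84606 and 26950 normalized counts in WT1 to WT3 and 51124, 49902 and 14634 in KO1 to KO3. Each knockout library was below its wild-type partner, at 56.8%, 59.0% and 54.3% of it. The groups nevertheless overlapped, because WT3 lay below KO1 and KO2.

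Jund, the JUN member known for steady expression in resting cells, had 9040, 10443 and 4806 normalized counts in WT1 to WT3 and 6843, 6447 and 2334 in KO1 to KO3. The knockout library stood at 75.7%, 61.7% and 48.6% of its wild-type partner. Junb, a weaker activator that can oppose c-JUN, had 24214, 30618 and 11929 in wild type and 22793, 21131 and 5294 in knockout. Its knockout level was 94.1%, 69.0% and 44.4% of wild type in pairs 1 to 3. For Junb and Jund, WT3 again lay below KO1 and KO2. Prdx2, which overlaps Junb on the other strand, stayed between 4055 and 4424 normalized counts in all 6 libraries.

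Among FOS genes the same-numbered pairs did not point one way. Fos had 57462, 67910 and 38922 normalized counts in WT1 to WT3 and 59063, 53945 and 13172 in KO1 to KO3. The knockout stood at 103% of wild type in pair 1 and at 33.8% in pair 3. Fosb, whose product is also an immediate early partner of JUN, had 8231, 16120 and 8342 in wild type and 15314, 13658 and 1495 in knockout. Its knockout level was 186% of wild type in pair 1 and 17.9% in pair 3, the widest spread of the 8 genes. Fosb also had the largest ratio of highest to lowest library, 10.8.

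Fosl1 had 287, 448 and 207 normalized counts in WT1 to WT3 and 498, 659 and 132 in KO1 to KO3. The knockout was above wild type in pairs 1 and 2 (174% and 147%) and below it in pair 3 (63.6%). The overlapping gene Ccdc85b had the same signs, with log2 differences of 0.57, 0.26 and −0.71 in pairs 1 to 3 beside 0.79, 0.55 and −0.65 for Fosl1, and the part of shared reads in this was not tested. Fosl2, which encodes FRA-2, varied least, with 7113, 7149 and 6093 in wild type and 7637, 8142 and 5186 in knockout. Its highest library was 1.57 times its lowest. Atf3, a CREB/ATF family gene induced by stress, had 20104, 26293 and 9697 in wild type and 22982, 21621 and 3449 in knockout. Like Fos, Atf3 was near level in pair 1 (114%) and far lower in pair 3 (35.6%).

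**Figure D2:**
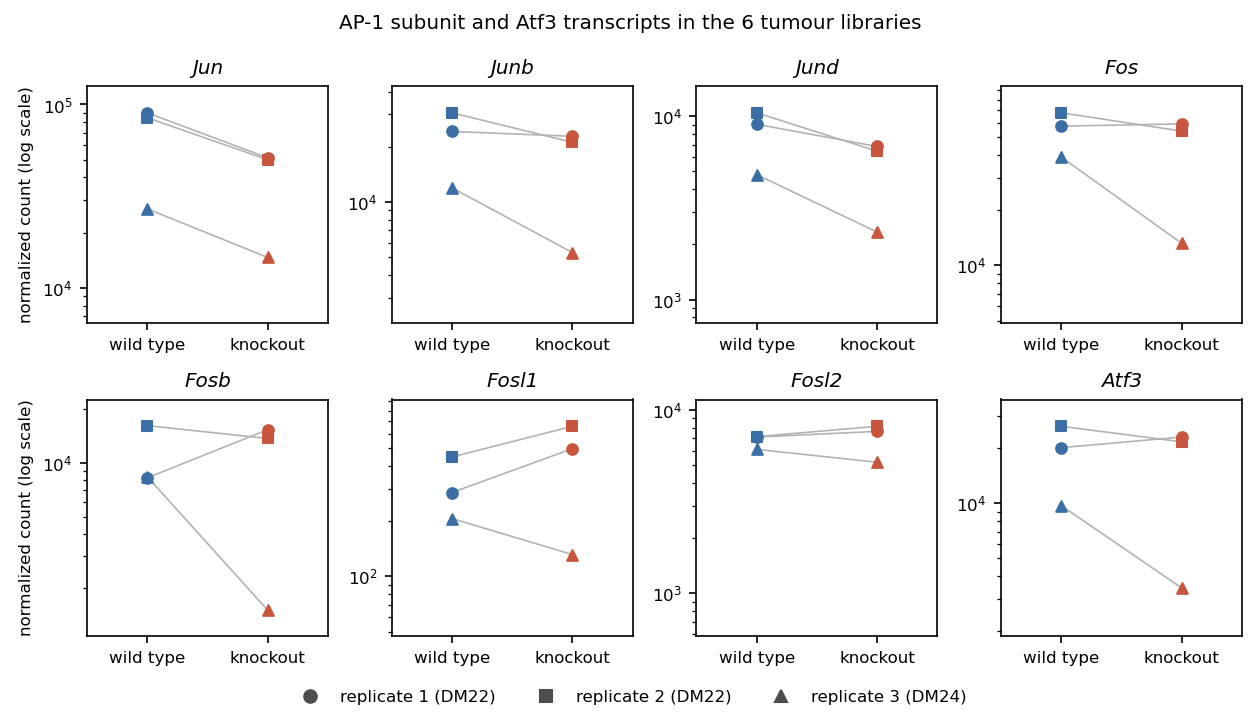
Normalized counts on a log scale (vertical axis) of each gene in wild-type (blue) and knockout (red) libraries, with symbols for the replicate number and grey lines joining libraries of the same number. The lines for Jun run nearly parallel, and for all 8 genes KO3 (red triangle) is the lowest of the 6.

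None of the 8 genes had knockout libraries all below the wild-type libraries, which 5.87% of all genes had. In limma, a linear model with a spread shared over genes, on log2(normalized count + 1), the differences (knockout minus wild type) were −0.82 ± 0.66 for Jun, −0.71 ± 0.49 for Jund and −0.60 ± 0.64 for Junb (SE). They were −0.62 ± 0.60 for Fos, −0.61 ± 0.92 for Fosb, 0.23 ± 0.63 for Fosl1, 0.02 ± 0.18 for Fosl2 and −0.53 ± 0.80 for Atf3 (SE). Differences below 0 stood at 6 of the 8 with a median of −0.60, beside 51.0% of all genes with a median of −0.00. The median of the 8 was −0.30 in edgeR and in DESeq2 without a term, and −0.10 with 5 of the 8 below 0 in DESeq2 on the DM22 libraries alone. None passed: limma called 0 of the 8, with adjusted p from 0.976 to 1.0, and 0% of all genes (759 of them had an unadjusted p under 0.05). EdgeR on the recovered reads also called 0 of the 8 and 0% of all genes, with 761 at an unadjusted p under 0.05. The deleted gene Yap1, whose groups did not overlap, was thus called by neither fit, so these fits can miss a real difference. DESeq2 without a term called 0 of the 8 and 0.527% of all genes. Without KO3 the limma differences of Junb, Fos, Fosb and Atf3 were above 0, at 0.086, 0.081, 0.48 and 0.37. That fit has no code series term and keeps DM24 in wild type only, as WT3. With a code series term and without KO3, DESeq2 gave −0.32 for Junb, −0.15 for Fos, 0.25 for Fosb and −0.057 for Atf3.

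Jun and Jund passed the test in DESeq2 once the pairs or the code series entered the model. With the replicate number as a block, DESeq2 called 2 of the 8 genes lower, beside 1.24% of all genes in either direction. Jun had a log2 difference of −0.82 ± 0.09 (SE, adjusted p = 4.7e-16) and Jund one of −0.71 ± 0.15 (SE, adjusted p = 0.000785). When the code series replaced the block, Jun and Jund were again the 2 called, beside 2.19% of all genes, with adjusted p of 8.0e-30 for Jun and 4.1e-05 for Jund. In the 4 DM22 libraries alone Jun (−0.79 ± 0.10, SE, adjusted p = 1.1e-12) and Jund (−0.55 ± 0.13, SE, adjusted p = 0.00191) were again the 2 called by DESeq2, beside 1.79% of all genes. Limma on the same 4 libraries called 0 of the 8 (adjusted p = 0.214 for Jun and 0.275 for Jund) and 0.0146% of all genes, with 1610 at an unadjusted p under 0.05. Neither DM22 fit depends on which DM22 libraries are paired.

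Limma and edgeR did not call Jun or Jund with the block or with code series. For Jun, limma gave an adjusted p of 0.213 with the block and 0.0681 with code series, and edgeR gave 0.23 and 0.0882. For Jund, limma gave 0.321 and 0.169. Both tools called 0 of the 8 genes and 0% of all genes in both designs, with 1303 (block) and 1546 (code series) genes at an unadjusted p under 0.05 in limma. The deleted gene Yap1 was therefore not called in these fits either. Junb had a DESeq2 adjusted p of 0.17 with the block and 0.0778 with code series, and 0.00358 in the latter fit when WT1 was left out.

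The pairs of Jun lay closest together among the 8 genes. For Jun the 3 pair differences lay within 0.12 of each other on the log2 scale, against a median of 0.36 over all genes tested. The same range was 0.64 for Jund, 1.08 for Junb, 1.60 for Fos, 1.44 for Fosl1, 1.68 for Atf3 and 3.38 for Fosb, and 0.42 for Fosl2.

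**Figure D3:**
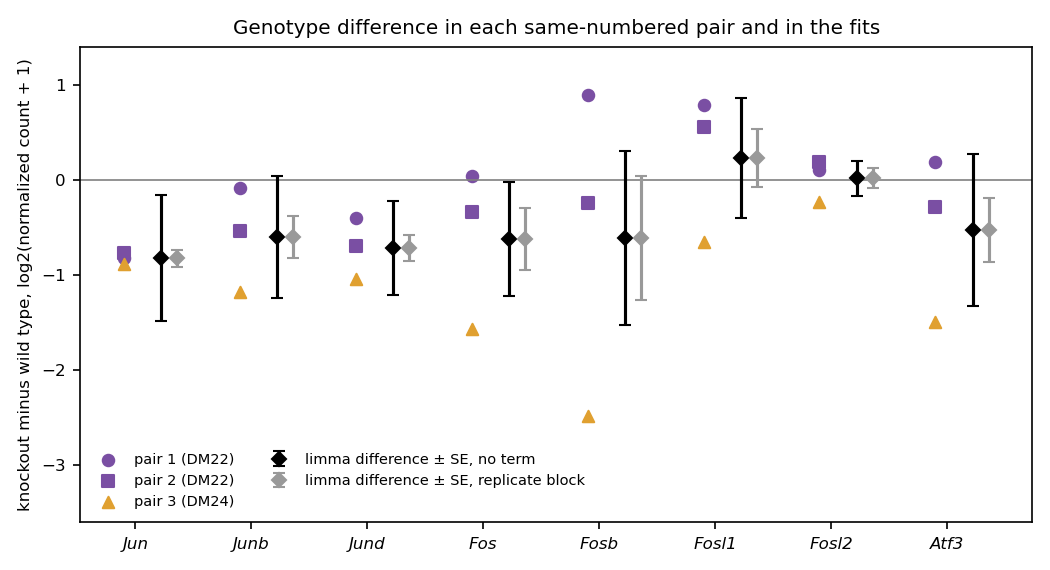
Knockout minus wild type on the log2(normalized count + 1) scale (vertical axis) for each gene in pairs 1 and 2 (purple) and pair 3 (orange), with the limma difference and its standard error without a term (black) and with the replicate block (grey). The pairs of Jun sit together near −0.82, whereas those of Fosb run from 0.90 to −2.48.

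Over all 6 libraries, neither the Jun share of JUN family transcripts nor the JUN share of all 8 differed between genotypes beyond the spread. A share within a library does not depend on how libraries are scaled. Jun made up 63.9%, 57.6% and 51.2% of JUN family transcripts per kilobase in WT1 to WT3 and 53.4%, 54.5% and 55.4% in KO1 to KO3. The means were 57.5% ± 6.37 and 54.4% ± 1.0 (SD, n = 3), a difference within the spread (exact permutation test, two-sided, p = 0.6, where the smallest possible p is 0.1). The pair differences were −10.5, −3.02 and 4.19 percentage points, and the DM22 libraries alone, whose groups did not overlap, gave −6.79. The JUN family as a whole was 49.2% ± 6.87 of the 8 transcripts with Yap and 46.1% ± 4.07 without (SD, n = 3, exact permutation test, two-sided, p = 0.6). Its pair differences of −11.8, −6.68 and 9.09 percentage points turned sign in pair 3. The DM22 libraries alone gave −9.23 percentage points, and their groups did not overlap for this share either (55.1% and 50.8% against 43.3% and 44.1%). With 2 libraries a group neither DM22 comparison can reach p under 0.05.

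The FOS family was nearly all Fos, with a Fosl1 share whose lowest knockout value lay above its highest wild-type value. Fosl1 made up 0.530%, 0.680% and 0.546% of FOS family transcripts per kilobase in WT1 to WT3 and 0.856%, 1.23% and 1.0% in KO1 to KO3. Fos itself was 91.8%, 89.1% and 88.9% in wild type and 87.8%, 87.2% and 87.0% in knockout. Neither group overlapped the other for these 2 shares, and the ratio of Fos to Fosl1 was 131 to 173 in wild type and 70.8 to 103 in knockout. They were singled out after 17 shares had been computed, of which 3 did not overlap (the third was Fosl1 among all 8 genes), and no test was run on them. The overlap with Ccdc85b bears on them too.

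Fosl2 was 2.76%, 2.28% and 3.38% of the family in wild type and 2.76%, 3.20% and 8.32% in knockout. Fosb was 4.95%, 7.97% and 7.18% in wild type and 8.58%, 8.32% and 3.72% in knockout. In KO3 Fosb was below Fosl2 per kilobase, at 0.447 of it, while in the other 5 libraries it was 1.79 to 3.50 times Fosl2. The ratio of Junb to Fos stayed close, at 0.313 to 0.461 in all 6 libraries.

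**Figure D4:**
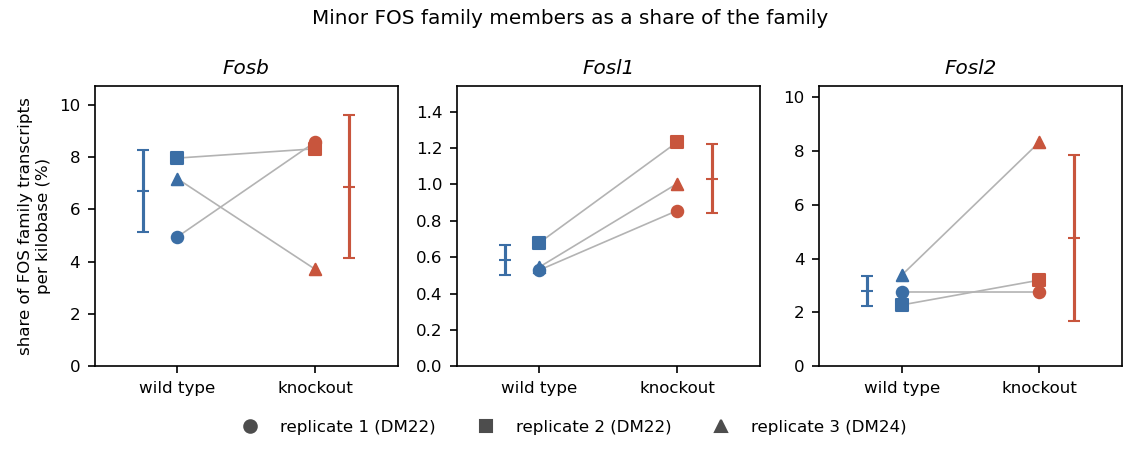
Share of FOS family transcripts per kilobase of exon (vertical axis, percent) held by Fosb, Fosl1 and Fosl2 in wild-type (blue) and knockout (red) libraries, with symbols for the replicate number and the mean ± SD of 3 libraries beside them. The Fosl1 points do not overlap between genotypes (0.530% to 0.680% and 0.856% to 1.23%), and the Fosl2 point of KO3 stands at 8.32%.

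All 8 genes were lower in the DM24 than in the DM22 libraries on average. In the fit that held genotype, limma called 4 of the 8 lower in DM24, beside 4.07% of all genes, and DESeq2 called 7, beside 8.43% of all genes. Jun differed by −1.74 ± 0.08 (SE, limma adjusted p = 0.000896), so that DM24 stood at 29.9% of DM22. Junb differed by −1.62 ± 0.21 (SE, limma adjusted p = 0.023), Jund by −1.26 ± 0.13 (SE, limma adjusted p = 0.0121) and Atf3 by −1.97 ± 0.33 (SE, limma adjusted p = 0.0353). Fosb, with a difference of −1.87 ± 0.65 (SE), was called by neither tool. Fosl2 had the smallest difference, −0.42 ± 0.10 (SE).

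The gap between the code series was wider in the knockout for each of the 8 genes. It was −1.70 in wild type and −1.79 in knockout for Jun, and −0.68 and −2.10 for Fos. For Fosb it was −0.47 and −3.27, and for Atf3 −1.25 and −2.69. In a model with an interaction of genotype and code series, DESeq2 called Fos (−1.41 ± 0.23, SE, adjusted p = 3.1e-06) and Atf3 (−1.43 ± 0.28, SE, adjusted p = 0.000424), beside 0.256% of all genes. Limma called 0 of the 8 and 0% of all genes in that model (adjusted p = 0.867 for both Fos and Atf3), with 748 genes, 7 of the 8 among them, at an unadjusted p under 0.05. Each genotype has 1 DM24 library, so the spread within DM24 was not measured and these errors and p-values rest on the DM22 libraries and the spread shared over genes. An interaction and a single unusual library cannot be told apart.

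**Figure D5:**
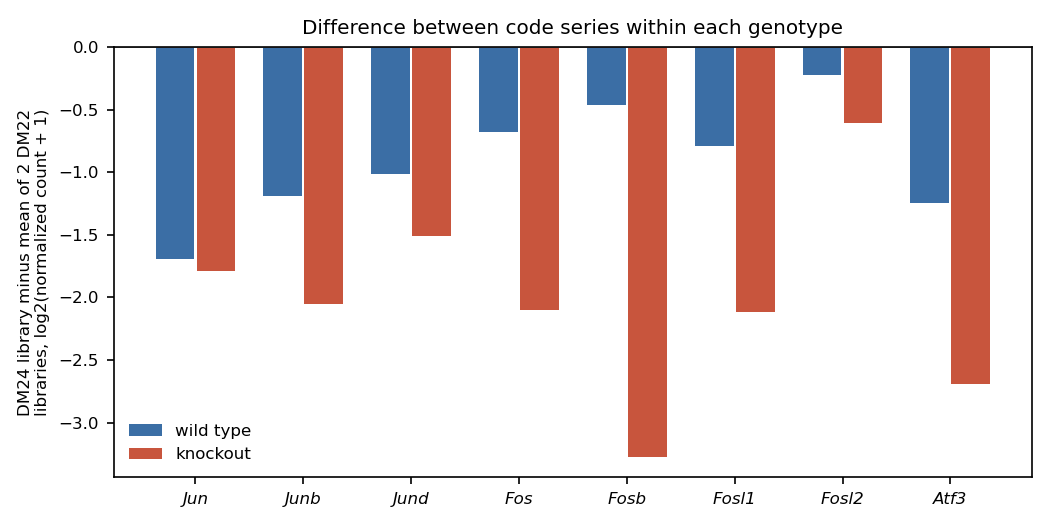
DM24 library minus the mean of the 2 DM22 libraries, on the log2(normalized count + 1) scale (vertical axis), in wild type (blue) and knockout (red). The 2 bars are nearly equal for Jun (−1.70 and −1.79) and farthest apart for Fosb (−0.47 and −3.27).

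Other values moved with the code series and with KO3. Immediate early and tissue dissociation genes outside the 8 scored 0.64, 0.72 and −0.42 in WT1 to WT3 and 0.29, 0.12 and −1.35 in KO1 to KO3, as mean log2 values around each gene's mean over 24 genes. The 8 genes scored 0.36, 0.70 and −0.38 in wild type and 0.45, 0.44 and −1.57 in knockout. Keratin 1 and keratin 10, made by differentiating keratinocytes, were at 54564 and 30022 normalized counts in KO3, against at most 18834 and 11106 in the other 5. The 6 measured markers of differentiated keratinocytes summed to 21266 to 35626 in wild type and 20148 to 92200 in knockout. The high sum of KO3 came from keratin 1 and keratin 10. Outside these 2 genes, the sum in KO3 lay within the range of the other 5 libraries. Residual Yap1 was also highest among knockout libraries in that library (1764). The part of tissue handling, differentiation or residual Yap1 in the AP-1 values was not tested, and in bulk RNA fewer cells of a type and less RNA per cell cannot be told apart.

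Markers of other cell types were summed in the same way. Of 4 measured T cell markers the sum was at most 1.78 normalized counts, and Cd3d was at 0. Endothelial markers summed to 38.3 to 97.4 over the 6 libraries, with Emcn at 0, and macrophage and Langerhans markers to 220 to 755. Skeletal muscle markers summed to 75.4 to 139, melanocyte markers to 379 to 735, red blood cell markers to 10.5 to 50.7 (Hba-a1 and Hba-a2 at 0) and sebocyte markers to 16572 to 21053. The 7 fibroblast markers summed to 5474, 9473 and 3451 in WT1 to WT3 and 7244, 6283 and 1822 in KO1 to KO3. Most of that sum was decorin (Dcn), at 5275, 9253 and 2193 in wild type and 7060, 5931 and 1127 in knockout. The sum was lowest in the 2 DM24 libraries through Dcn, and the rest of the sum was highest there. The part of fibroblasts in the AP-1 values was not tested.

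In the other lists of the pathway, chosen with results of these libraries known, DESeq2 with the block called 0 or 1 gene each apart from the immediate early and YAP-TEAD lists. Limma called 0 genes in each list below. Over all 13671 genes tested, 51.0% lay below 0 in limma, and DESeq2 with the block called 114 lower and 56 higher. Of 13 tested bZIP partners of AP-1, 8 lay below 0 with a median of −0.06, and DESeq2 with the block called 1 lower, the small MAF factor Maff. With the code series DESeq2 called 2 lower, Maff among them, beside 200 of all genes. Maff had 1107, 969 and 514 normalized counts in WT1 to WT3 and 564, 513 and 259 in KO1 to KO3. Its pair differences of −0.97, −0.92 and −0.98 lay close together (DESeq2 with the block, adjusted p = 1.2e-07).

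Of 20 kinases, phosphatases and turnover factors that act on JUN and FOS proteins, 13 lay below 0 with a median of −0.04. DESeq2 called 0 of them in any of its 3 designs. The largest differences were −0.61 ± 0.26 (SE) for Dusp6, a phosphatase of ERK, and −0.45 ± 0.49 (SE) for Dusp1, a phosphatase of JNK and p38. Of 12 factors known to act on the Fos and Jun promoters, 4 lay below 0 with a median of 0.03. One was called lower by DESeq2 with the block, Srf, the serum response factor, at 7497, 9573 and 3756 normalized counts in WT1 to WT3 and 6220, 7203 and 2667 in KO1 to KO3 (adjusted p = 0.024, and 0.0965 with the code series).

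Of 29 genes known as AP-1 targets, 17 lay below 0 with a median of −0.08. DESeq2 with the block called 1 lower, Ptgs2, the inducible cyclooxygenase. Ptgs2 had 12365, 7384 and 7034 normalized counts in WT1 to WT3 and 5577, 5859 and 3240 in KO1 to KO3, with no overlap between the groups (adjusted p = 0.000802). The median of these targets was higher in DM24, by 0.58. DESeq2 called 13 higher there (beside 6.47% of all genes) and 4 lower (beside 8.43% of all genes).

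All 24 immediate early and dissociation genes outside the 8 lay below 0 in the genotype comparison, with a median of −0.59, beside 51.0% of all genes. DESeq2 called 48, 114 and 200 of all 13671 genes lower without a term, with the replicate block and with code series. In this list it called 1, 9 and 12 genes lower in these fits. Those named by size with the block were Cyr61, a matricellular YAP target (−1.78), the chaperone Hspa8 (−1.37), the zinc finger factor Egr1 (−0.89) and the small GTPase Rhob (−0.88), all log2 differences in limma. Of 18 tested YAP-TEAD targets 16 lay below 0 with a median of −0.24, and DESeq2 with the block called 3 lower, Cyr61, Fjx1 and Axl. Cyr61, Fjx1 and Axl differed by −1.78, −0.80 and −0.73. Fjx1 had an adjusted p of 0.0832 when code series replaced the block.

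The genes whose profile over the 6 libraries was nearest to a member included other immediate early genes for Jun and Fos. Likeness was the root mean square difference of log2 values centred on each gene, over 11867 other genes with a mean of at least 50. Nearest to Jun were Klf6 (0.09), a Kruppel-like factor, Rhob (0.09), the inducible chaperone Hspa1a (0.15), Dnajb4 (0.17) and Atp12a (0.18). Klf6 had 28098, 22100 and 8059 normalized counts in WT1 to WT3 and 15778, 14110 and 4321 in KO1 to KO3. Nearest to Fos were Zfp36 (0.10), which encodes an RNA decay factor, Egr3 (0.15), Prr16 (0.16), Scara3 (0.16) and Ier2 (0.17). Junb came sixth for Fos (0.17) and twentieth for Jun (0.25). Among the nearest to Fosl1 were Mmp17 (0.22), Per1 (0.26), Slc5a3 (0.27) and Dlg4 (0.27), a looser match than for Jun or Fos. The 6 libraries fall into 2 code series, which these profiles share.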

How the data were processed

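Per the labels' protocols, libraries were made from total RNA with an unstranded kit, TruSeq RNA v2. Tools named in the submitters' processing notes are STAR 2.5 and, for the deposited values, DESeq2 1.18.1, with GRCm38 (mm10). The counting tool, annotation and strand setting are not given in the sources used here. The authors deposited normalized counts, a signal made of reads divided by 1 size factor per library. Dividing each library by its smallest step gave whole reads for 100% of values (tolerance 0.001 reads), and these steps matched size factors by median of ratios (0.769 to 1.21). A count of 3 reads, the limit that 0 reads allow, is 2.47 to 3.90 normalized counts and covers counting error only.

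Genes whose mean reached 10 normalized counts (13671) were tested with limma 3.58.1 (R 4.3.3; trend, robust, log2(normalized count + 1), no covariate, two-sided, Benjamini-Hochberg at 0.05). Alternative count tests on the reads were edgeR 4.0.16 (TMM, quasi-likelihood) and DESeq2 1.42.0 (deposited size factors, no independent filtering). Deviations from group means correlated by 0.333, 0.327 and 0.694 between same-numbered libraries, each above 0.1, so the numbers, which come from the labels, were taken as pairs. Within DM22 the libraries of unlike number passed 0.1 too, at 0.26 for WT1 with KO2 and 0.505 for WT2 with KO1. The threshold therefore cannot pick the pairs within DM22. Pairing there rests on the replicate numbers alone, and the labels state no paired design.

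Lengths are the union of GENCODE M21 exons. Promoter windows are from RefSeq GRCm38.p6, with 7 of the 8 members matched. The 183 list genes (179 in the table, 3 by another symbol), the members and the tests were chosen with earlier results of these data known. Genes named from a list are up to 4 with the largest difference among those called by limma, else by DESeq2 with the block, else the 2 largest. The 5 genes nearest to Jun, Fos and Fosl1 are named, except 1 that is not reported here. Alternatives were another pseudocount, filter, scaling, length, tool, covariate and leaving out libraries.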

Additional observations from a re-analysis of the deposited data

Results flagged for a closer look

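DESeq2's interaction test of genotype and code series passed the threshold for 2 genes. It sets 1 DM24 library per genotype against the DM22 libraries, so the spread within DM24 is unmeasured and the values compare these libraries only. For Fos the difference in the DM24 pair minus that in the DM22 libraries was −1.41 on the log2 scale (SE 0.23, adjusted p = 3.1e-06). For Atf3 it was −1.43 (SE 0.28, adjusted p = 0.000424). Limma gave −1.42 and −1.45 with an adjusted p of 0.867 for both. The interaction was below 0 for all 8 genes in both tools. Knockout library 3 is the single DM24 library of its genotype, and it was the lowest of the 6 for each of the 8 genes.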

How the results depend on the processing

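The count of all genes called was 0 in limma and 72, 170, 299 and 245 in DESeq2 without a term, with the replicate block, with the code series and in the DM22 libraries alone. In limma it was 2 in the DM22 libraries alone and 0 to 1 when single libraries were left out, and in DESeq2 with the code series 125, 495 and 214 without WT1, WT2 and WT3 and 139, 85 and 210 without KO1, KO2 and KO3. The 8 genes went from 0 calls to 2 in DESeq2 with the block, with the code series and in the DM22 libraries, and to 2 to 3 with the code series when single libraries were left out. The log2 difference of Jun, called in those DESeq2 fits, was −0.82 with the replicate block, −0.82 with the code series and −0.79 in the DM22 libraries, and with the code series −0.80 without WT1, −0.84 without KO1 and −0.85 to −0.79 over all 6 libraries left out in turn. In limma without a term, leaving out single libraries moved Jun from −1.38 to −0.22 (the latter without knockout library 3), with an adjusted p of 0.584 to 1.0 and no call. Jund stayed below 0 in each fit run (−1.05 to −0.21 in limma with single libraries left out).

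The replicate block changed no other call among the 8 genes. Signs of uncalled genes were less stable. Without single libraries limma gave −0.99 to 0.086 for Junb, −1.0 to 0.081 for Fos, −1.19 to 0.48 for Fosb, −0.22 to 0.94 for Fosl1, −0.10 to 0.22 for Fosl2 and −1.0 to 0.37 for Atf3. Junb, Fos, Fosb and Atf3 turned above 0 without knockout library 3, a fit that keeps DM24 in wild type only and has no code series term. In DESeq2 with the code series the ranges were −1.20 to 0.25 for Fosb, −0.053 (without WT1) to 0.66 for Fosl1 and −0.041 (without KO2) to 0.15 for Fosl2, which was −0.019 without WT1 and −0.015 without WT2. Junb (−0.78 to −0.32), Fos (−0.84 to −0.15) and Atf3 (−0.79 to −0.057) stayed below 0 in those DESeq2 fits. In the DM22 libraries alone Fosb was 0.33 in limma and 0.25 in DESeq2, and limma gave −0.15 for Fos, −0.04 for Atf3, −0.31 for Junb and 0.67 for Fosl1. The interaction of Fos and of Atf3 was called by DESeq2 (−1.41 and −1.43) and not by limma. The knockout minus wild-type difference in the Jun share of the JUN family was −10.5 and 4.19 percentage points in pairs 1 and 3. It was −6.79 in the DM22 libraries and −6.32 to 0.06 without single libraries. For the JUN family share it was −11.8 and 9.09 in pairs 1 and 3, −9.23 in the DM22 libraries and −6.89 to −0.16 without single libraries. The fits in edgeR with the code series, DESeq2 in the DM22 libraries and DESeq2 with the code series without single libraries were chosen after seeing the data. The cause of these changes was not tested. Fits that leave libraries out also have fewer libraries and another balance of the code series.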
